A study of Mus musculus with 2 samples.

Results

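The 10 genes described here, Per1, Per2, Per3, Cry1, Cry2, Arntl, Clock, Nr1d1, Nr1d2 and Dbp, belong to the mammalian circadian clock, Dbp as an output factor. They were chosen by name, from 21884 protein-coding genes of unique symbol in the GENCODE mouse annotation, and all 10 were found there. Open chromatin at these genes was measured by DNase-seq in 2 libraries, replicates 1 and 2, of the left cerebral cortex of adult male mice aged 18 to 20 months. All were of the strain B6CASTF1/J, the first-generation cross of C57BL/6 with CAST, a strain bred from wild mice, with no other genotype or treatment named. DNase-seq cuts the DNA of nuclei with the enzyme DNase I, so that open stretches of the genome collect many cuts and appear as peaks. A footprint is a short stretch within such a region where cuts are sparser than in the flanking bases. The libraries form 1 group with no second condition, and the labels give them separate tissue entries but the same donor entry. The spread between them may therefore be technical, since the tissues may have come from 1 animal or from 2. The labels give no time of day for the collection, which matters for the phase of a clock and cannot be taken from these data.

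In the clock, the proteins CLOCK and BMAL1 (the product of Arntl) pair up and bind the DNA element called the E-box, from which they drive transcription of the Per, Cry, Nr1d and Dbp genes. PER and CRY proteins return to the nucleus and block CLOCK and BMAL1, which closes the main loop. REV-ERB proteins, the products of Nr1d1 and Nr1d2, repress Arntl and other genes through the ROR element in competition with ROR activators, and DBP with its relatives activates genes through the D-box. The suprachiasmatic nucleus of the hypothalamus sets the rhythm of the body, while the cerebral cortex is among the tissues that carry a clock of their own. The E-box is also read by other factors, among them those of the USF and MYC families, so a footprint over an E-box does not name the protein that left it.

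A choice of the sequences in which a clock element lay in a footprint of both libraries is printed, because the clock proteins act through these elements. They were read from the GRCm38.p6 genome on the coordinates of mm10, in the direction of the gene, with 12 bases on each side of the footprints and the motif. The capitals mark the footprinted match, which is the E-box, CACGTG, in the first set, and a further match nearby is left in lower case. The Per1 and Cry1 promoters, the second promoter-region peak of Nr1d2, and introns or upstream sequence of Per1, Cry2, Dbp and Nr1d1 held these sites.
Per1 upstream, chr11:69094857-69094906, plus strand: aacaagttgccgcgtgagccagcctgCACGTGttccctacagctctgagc
Per1 upstream, chr11:69095045-69095091, plus strand: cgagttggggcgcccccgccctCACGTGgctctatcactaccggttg
Per1 intron, chr11:69097656-69097701, plus strand: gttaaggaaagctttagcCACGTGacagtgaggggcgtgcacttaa
Per1 intron, ahead of an internal start, chr11:69098766-69098803, plus strand: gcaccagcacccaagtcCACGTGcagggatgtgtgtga
Cry1 upstream, chr10:85185090-85185132, minus strand: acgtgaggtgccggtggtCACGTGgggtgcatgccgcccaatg
Cry2 intron, chr2:92423849-92423890, minus strand: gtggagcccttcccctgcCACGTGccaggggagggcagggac
Nr1d1 intron, chr11:98773856-98773900, minus strand: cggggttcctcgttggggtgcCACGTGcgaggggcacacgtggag
Nr1d1 intron, chr11:98774135-98774201, minus strand: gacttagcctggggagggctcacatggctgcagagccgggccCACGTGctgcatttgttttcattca
Nr1d1 upstream intergenic, chr11:98783514-98783566, minus strand: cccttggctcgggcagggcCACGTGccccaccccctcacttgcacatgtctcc
Nr1d2 intron, chr14:18238500-18238544, minus strand: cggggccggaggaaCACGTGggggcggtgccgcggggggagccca
Dbp intron, chr7:45707691-45707736, plus strand: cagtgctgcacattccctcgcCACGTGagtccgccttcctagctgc
Dbp intron, chr7:45707812-45707850, plus strand: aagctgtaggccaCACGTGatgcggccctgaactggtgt

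A second set holds examples of the other clock elements. The D-box was searched as TTATGTAA on both strands, so that it reads in reverse in the Nr1d1 and Nr1d2 lines. The E-prime box, a variant E-box, was searched as CACGTT and reads in reverse in the Cry2 promoter. The ROR element was searched by its 7-base core in 2 forms, TAGGTCA (core A) and TGGGTCA (core G). The Arntl line is shown because ROR elements at the Arntl start are the textbook route by which REV-ERB proteins act on this gene. That stretch lies in the 5′ UTR of the first exon and was in no peak and no footprint of either library. It is shown with 10 bases on each side of the motif.
Per3 upstream, chr4:151044799-151044843, minus strand: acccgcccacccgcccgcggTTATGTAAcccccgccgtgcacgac
Per3 upstream, chr4:151044848-151044886, minus strand: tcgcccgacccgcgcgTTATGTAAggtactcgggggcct
Nr1d1 intron, chr11:98774049-98774106, minus strand: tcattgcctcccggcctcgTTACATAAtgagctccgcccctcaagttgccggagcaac
Nr1d2 intron, chr14:18238586-18238629, minus strand: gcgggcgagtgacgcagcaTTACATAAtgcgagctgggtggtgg
Cry2 promoter, E-prime box, chr2:92434201-92434255, minus strand: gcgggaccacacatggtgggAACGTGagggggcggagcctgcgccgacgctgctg
Cry2 intron, core G, chr2:92423924-92423976, minus strand: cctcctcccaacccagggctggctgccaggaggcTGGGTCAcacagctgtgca
Arntl first exon, core A, chr7:113207531-113207557, plus strand: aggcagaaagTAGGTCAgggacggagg

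Replicate 1 had 73221 peaks in its shorter, main list and 264450 footprints, and replicate 2 had 111105 peaks and 385637 footprints. Promoter peaks of marker genes were checked against the tissue label. All 4 markers of neurons and all 4 of cortical excitatory neurons (Slc17a7, Neurod6 and Tbr1 among them) had one in both libraries. Among other markers, 1 of 3 for inhibitory neurons, 2 of 4 for astrocytes and 3 of 4 for oligodendrocytes had one in each library. Over all protein-coding genes the share with a promoter peak was 60.7% in replicate 1 and 61.2% in replicate 2. The astrocyte genes with one were Slc1a2 and Aqp4 in replicate 1 and Slc1a2 and Slc1a3 in replicate 2. None of the 4 microglial markers had one. Of the 4 endothelial markers, 1 had one in replicate 1 and none in replicate 2. None of the 3 genes listed for the suprachiasmatic nucleus (Avp, Vip and Six6) had one. Of the 3 liver markers Ttr alone had one, in replicate 2. The inhibitory markers Gad2 and Slc32a1 also had none in the main lists. A listed gene need not be particular to its cell type or region. A missing peak therefore does not by itself bear out the tissue label. The tissue is a mixture of cells, and fewer open cells cannot be told apart from less opening per cell.

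All 10 clock genes had a promoter peak, defined as a peak that overlaps the 1 kb on either side of an annotated transcription start site (TSS), in replicate 1 and in replicate 2. Of all protein-coding genes 60.7% had one in replicate 1, 61.2% in replicate 2 and 58.7% in both. Most of the clock promoters are rich in CpG, a feature of many promoters that are open across tissues. Their median ratio of observed to expected CpG was 0.820, against 0.606 over all genes, and it ran from 0.438 at Nr1d1 to 1.01 at Cry1. Among the 13531 genes with a ratio at least as high as the lowest clock gene, 87.0% had a promoter peak in both libraries. The presence of a peak at all 10 genes is thus read against a background that is itself high for promoters of this kind.

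The strength of the promoters set the clock genes apart from one another more than their presence did. The deposited signal of the strongest promoter peak, 1 value per peak in the authors' own scale, spanned from 3.89 at Clock to 10.1 at Nr1d1 in replicate 1 and from 2.63 at Clock to 11.7 at Per1 in replicate 2. The median over the 10 genes was 7.35 in replicate 1 and 7.05 in replicate 2, a mean of 7.20 ± 0.207 (SD, n = 2), while the median over all genes with a promoter peak was 3.82 and 2.88. All 10 clock genes lay above the median gene in replicate 1 and 9 in replicate 2, where Clock fell below it. The highest 25% of all open promoters held 7 of the clock genes in each library, and the highest 10% held 5 and 6. With 2 libraries in 1 group there was no contrast to test, and even 2 values against 2 cannot give a two-sided exact p below 0.333, so the order of the genes is given with its spread only.

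**Figure D1:**
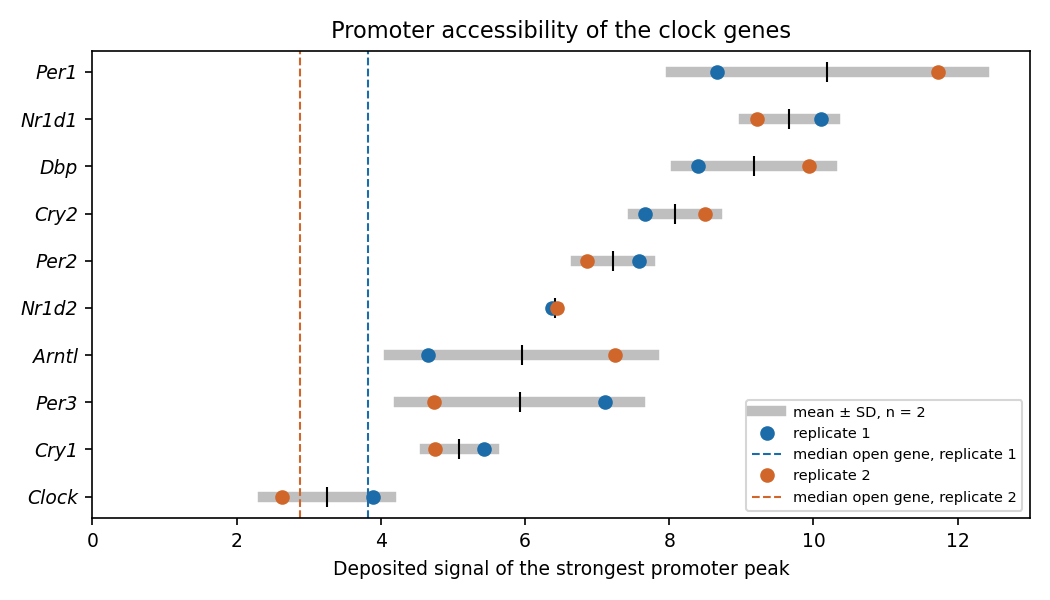
Deposited signal of the strongest promoter peak (horizontal axis, the authors' scale) for each of the 10 clock genes, with a point per library, the mean as a tick and ± SD (n = 2) as a grey bar. The dashed lines are the medians over all genes with a promoter peak, 3.82 in replicate 1 and 2.88 in replicate 2. Per1, Nr1d1 and Dbp stand highest and Clock lowest.

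By mean signal the activators Arntl and Clock were in the lower part of the order, although Arntl was above Per2 and Nr1d2 in replicate 2. At Arntl, which encodes BMAL1, the strongest peak (chr7:113207081-113207520 in replicate 1) had a signal of 4.65 in replicate 1 and 7.25 in replicate 2. Its mean was 5.95 ± 1.84 (SD, n = 2), and its log2 ratio of replicate 1 to replicate 2 of -0.64 was the farthest from 0 among the 10 genes. A second, weaker peak downstream of the start had 1.75 and 1.49, and a far internal start had no main peak in either library. At Clock, the partner of BMAL1, the peak at chr5:76304721-76304940 had 3.89 and 2.63, a mean of 3.26 ± 0.889 (SD, n = 2). It was the weakest of the 10 in both libraries, although its GC content, 75.5%, was the highest in replicate 1. A second Clock peak within the first part of the gene had 2.21 in replicate 1 and 0.727 in replicate 2.

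The 3 Per genes, which encode the repressors that pair with CRY proteins, covered most of the range. At Per1 the peak upstream of and across the start, chr11:69094761-69095260, had a signal of 8.66 in replicate 1 and 11.7 in replicate 2, a mean of 10.2 ± 2.17 (SD, n = 2). This mean stood at percentile 99.1 of all open promoters. Per1 also had peaks at 2 internal starts, with 6.92 and 4.66 at chr11:69098781-69098980 and 4.97 and 4.67 at chr11:69099941-69100160. At Per2 the peak at chr1:91459301-91459640 had 7.59 and 6.85, a mean of 7.22 ± 0.519 (SD, n = 2). At Per3 the peak at chr4:151044621-151045000 had 7.11 and 4.74, a mean of 5.93 ± 1.67 (SD, n = 2). Per1 was above Per2 and Per2 above Per3 in each library by itself, so the order within the family was the same in both.

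The protein-coding genes closest to Per1 in log2 promoter signal over the 2 libraries were Hbp1 (8.48 and 11.6) and G3bp1 (8.87 and 11.9). Their Euclidean distances from Per1 were 0.03 and 0.04. This likeness rests on 2 values per gene.

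The CRY repressors differed from each other. At Cry2 the peak at chr2:92434041-92434340 had 7.67 in replicate 1 and 8.49 in replicate 2, a mean of 8.08 ± 0.586 (SD, n = 2). At Cry1 the peak at chr10:85185001-85185180 had 5.43 and 4.75, a mean of 5.09 ± 0.480 (SD, n = 2). Both Cry2 values were above both Cry1 values. The Cry1 promoter was split into neighbouring peaks: a second one just upstream, chr10:85185281-85185480, had 5.19 and 4.03, nearly the level of the first.

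The REV-ERB genes and the output gene Dbp included some of the strongest promoters. At Nr1d1 the peak at chr11:98775241-98775460 had 10.1 in replicate 1 and 9.22 in replicate 2, a mean of 9.66 ± 0.631 (SD, n = 2), at percentile 98.6. It was the only promoter-region peak of Nr1d1 in either library. At Nr1d2 the peak at chr14:18239021-18239340 had 6.38 and 6.44, a mean of 6.41 ± 0.0420 (SD, n = 2). In deposited signal this was the closest match between the libraries among the 10 genes. By percentile within each library it was not, with 81.3 and 87.9 at Nr1d2 against 90.4 and 90.1 at Per2. A second Nr1d2 peak in an intron, chr14:18238361-18238720, reached 6.33 in replicate 1 but 3.80 in replicate 2. At Dbp, which encodes the D-box activator, the peak at chr7:45704761-45705080 had 8.41 and 9.94, a mean of 9.17 ± 1.08 (SD, n = 2). It ended 8 bp short of the nearest annotated start in replicate 1 and 28 bp short of it in replicate 2.

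Placed by mean signal, the order was Per1, Nr1d1, Dbp, Cry2, Per2, Nr1d2, Arntl, Per3, Cry1 and Clock. The values of the 2 libraries overlapped between the neighbours Per1 and Nr1d1, Nr1d1 and Dbp, Dbp and Cry2, Nr1d2 and Arntl, Arntl and Per3, and Per3 and Cry1. They did not overlap between Cry2 and Per2, Per2 and Nr1d2, or Cry1 and Clock. Of the 10 genes, 5 were higher in replicate 1 and 5 in replicate 2 in deposited signal. All 10 were within 2-fold between the libraries, against 93.6% of the 12840 genes with a promoter peak in both. The median log2 ratio of replicate 1 to replicate 2 was 0.06 for the clock genes and 0.32 over those 12840 genes. Single clock genes ran from -0.64 to 0.58.

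The promoter peaks of the 10 genes held 102 footprints in replicate 1 and 97 in replicate 2. The median gene of the set had 8.5 and 9.5 of them, against 5 in each library over all genes with a promoter peak. Per length of peak the difference was smaller, with medians of 1.78 and 1.55 per 100 bp against 1.40 and 1.36. Per1 held 16 in both libraries, Nr1d2 held 16 and 14, Dbp held 15 and 11, and the single, short Nr1d1 promoter peak held 5 in both. Per 100 bp the genes stood differently, with 2.35 and 2.06 at Nr1d2, 2.27 and 1.67 at Nr1d1, and 1.14 and 1.63 at Per1. Arntl (0.930), Cry1 (1.10), Per3 (1.14) and Per1 were below the value over all genes in replicate 1, and Cry1 (0.549), Dbp (1.17) and Arntl (1.29) in replicate 2.

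An E-box with at least 3 of its bases in a promoter-peak footprint was found at 3 of the 10 genes in both libraries: Per1, Cry1 and Nr1d2. The same held for 4.68% of the 12840 genes with a promoter peak in both libraries. This share and the promoter shares of the other motifs below were not matched for peak signal or for the number of footprints. At Per1 the E-boxes were centred at positions -332 and -148 from the nearest TSS (negative is upstream), both wholly inside footprints of both libraries. Another promoter-region E-box at Per1 lay at position -163 of an internal start. At Cry1 the E-box at position -47 was wholly inside a footprint in both libraries, while an E-prime box next to it at position -66 was in a peak of both libraries but in no footprint of either. At Nr1d2 the E-box at position 600 had 6 and 5 bases in a footprint, and the other E-boxes, at positions 555 and 452, were footprinted in replicate 1 alone.

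E-prime boxes in promoter footprints of both libraries stood at 2 of the 10 genes, Per2 and Cry2, against 0.724% of genes with a promoter peak. The Per2 site at position 8 had 4 bases in a footprint in replicate 1 and 6 in replicate 2, and the Cry2 site at position -189 had all 6 in both. A Clock site at position 552 was footprinted in replicate 1 alone. Counting matches anywhere in a promoter peak of both libraries, with or without a footprint, 5 of the clock genes held an E-prime box, against 6.46% of genes, and 3 held an E-box, against 11.7%.

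D-boxes, the sites of DBP and its relatives, were footprinted in both libraries at the promoters of 3 of the 10 genes: Per2, Per3 and Nr1d2. Over all genes with a promoter peak the share was 0.21%. Per3 had 2 such sites, centred at positions -154 and -201, and both were covered in full by footprints in each library. Its remaining promoter D-box, at position -666, lay in a weaker peak and in no footprint. The Per2 D-box at position -121 had 4 bases in a footprint in replicate 1 and 6 in replicate 2. The Nr1d2 D-box at position 521 was covered in full in both and lay in the same intronic peak as its footprinted E-box. As with the E-box, a footprint over a D-box does not name the protein that left it.

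ROR cores were in no promoter footprint of the 10 genes in either library. Of all genes with a promoter peak in both libraries, 0.0779% had core A and 0.226% core G in a promoter footprint of both. Dbp held both forms in its main promoter peak, at positions -186 and -231, and neither had the 3 footprinted bases. At Arntl, core A was centred at position 18 in the gap between its main peaks and outside the wider peaks too. All 7 bases of that core nonetheless stood at a false discovery rate of at most 0.001 in the per-base lists of both libraries, so the core lay in DNA called open there without a peak drawn over it. That a motif was in no footprint says nothing of whether its factor acts at the gene.

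Motifs of general promoter factors gave a frame for these counts. The CRE, TGACGTCA, through which CREB acts, was in a promoter footprint of none of the 10 genes in either library. In footprints of both libraries it stood at 4.09% of genes with a promoter peak. The GC box, GGGCGG, was footprinted in both libraries at 7 of the 10, against 43.8%, and the CCAAT box, searched by those 5 letters, at 5 of the 10, against 9.67%. In the RefSeq promoter windows of GRCm38.p6, which run from 250 bases before to 50 after the start, 9 of the 10 genes had an entry among 16505 genes. There the E-box was in 2 of the 9, Per1 and Cry1, and in 9.16% of all windows. The D-box was in 1 of the 9, Per3, and in 1.02% of all windows. The E-prime box was in 3 of the 9 (Cry1, Cry2 and Nr1d1) and in 5.52% of windows, and core A was in 1 of the 9, Arntl, and in 2.66%. Core G was in none of the 9 and in 4.16% of windows, and the CRE in none and in 2.64%. The GC box and the CCAAT box were each in 8 of the 9, against 51.0% and 42.1%. Both strands were searched throughout, and no matches of the clock motifs in peaks shared bases.

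**Figure D2:**
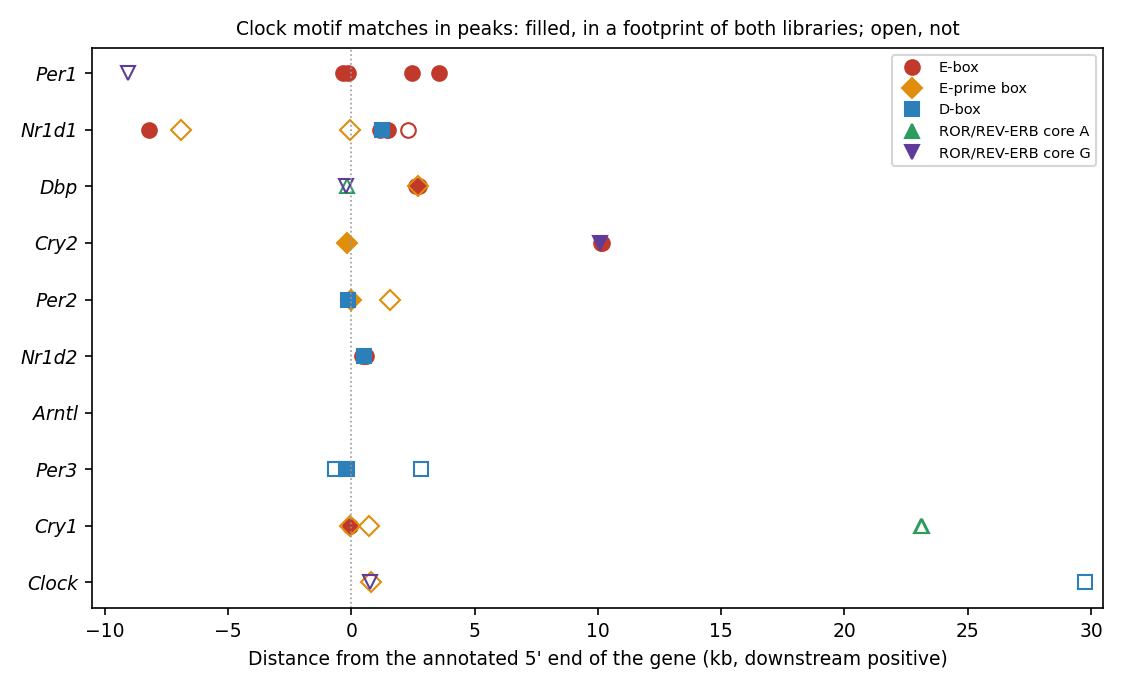
Matches of the E-box, E-prime box, D-box and ROR cores in peaks around each clock gene, by distance from the annotated 5′ end of the gene in kb (horizontal axis, downstream positive). Filled symbols are sites with at least 3 bases in a footprint of both libraries, and open symbols are the others. Filled E-boxes of Nr1d1, Dbp and Cry2 lie outside the promoter window, and Arntl has no match in the range drawn.

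Beyond the promoters, the windows of the 10 genes (each gene and its flanks of 10 kb) held 80 peaks in replicate 1 and 92 in replicate 2. No peak fell in the windows of more than 1 clock gene. Of these, 23 in each library were promoter peaks of the clock genes, 9 and 7 lay within 1 kb of the start of another gene, and 48 and 62 were distal, more than 1 kb from every annotated start. Distal peaks lay mostly in introns, 32 in replicate 1 and 46 in replicate 2, with 13 intergenic ones in each. Their median signal, 1.49 and 1.29, was below that of the promoter peaks, 4.97 and 4.03.

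**Figure D3:**
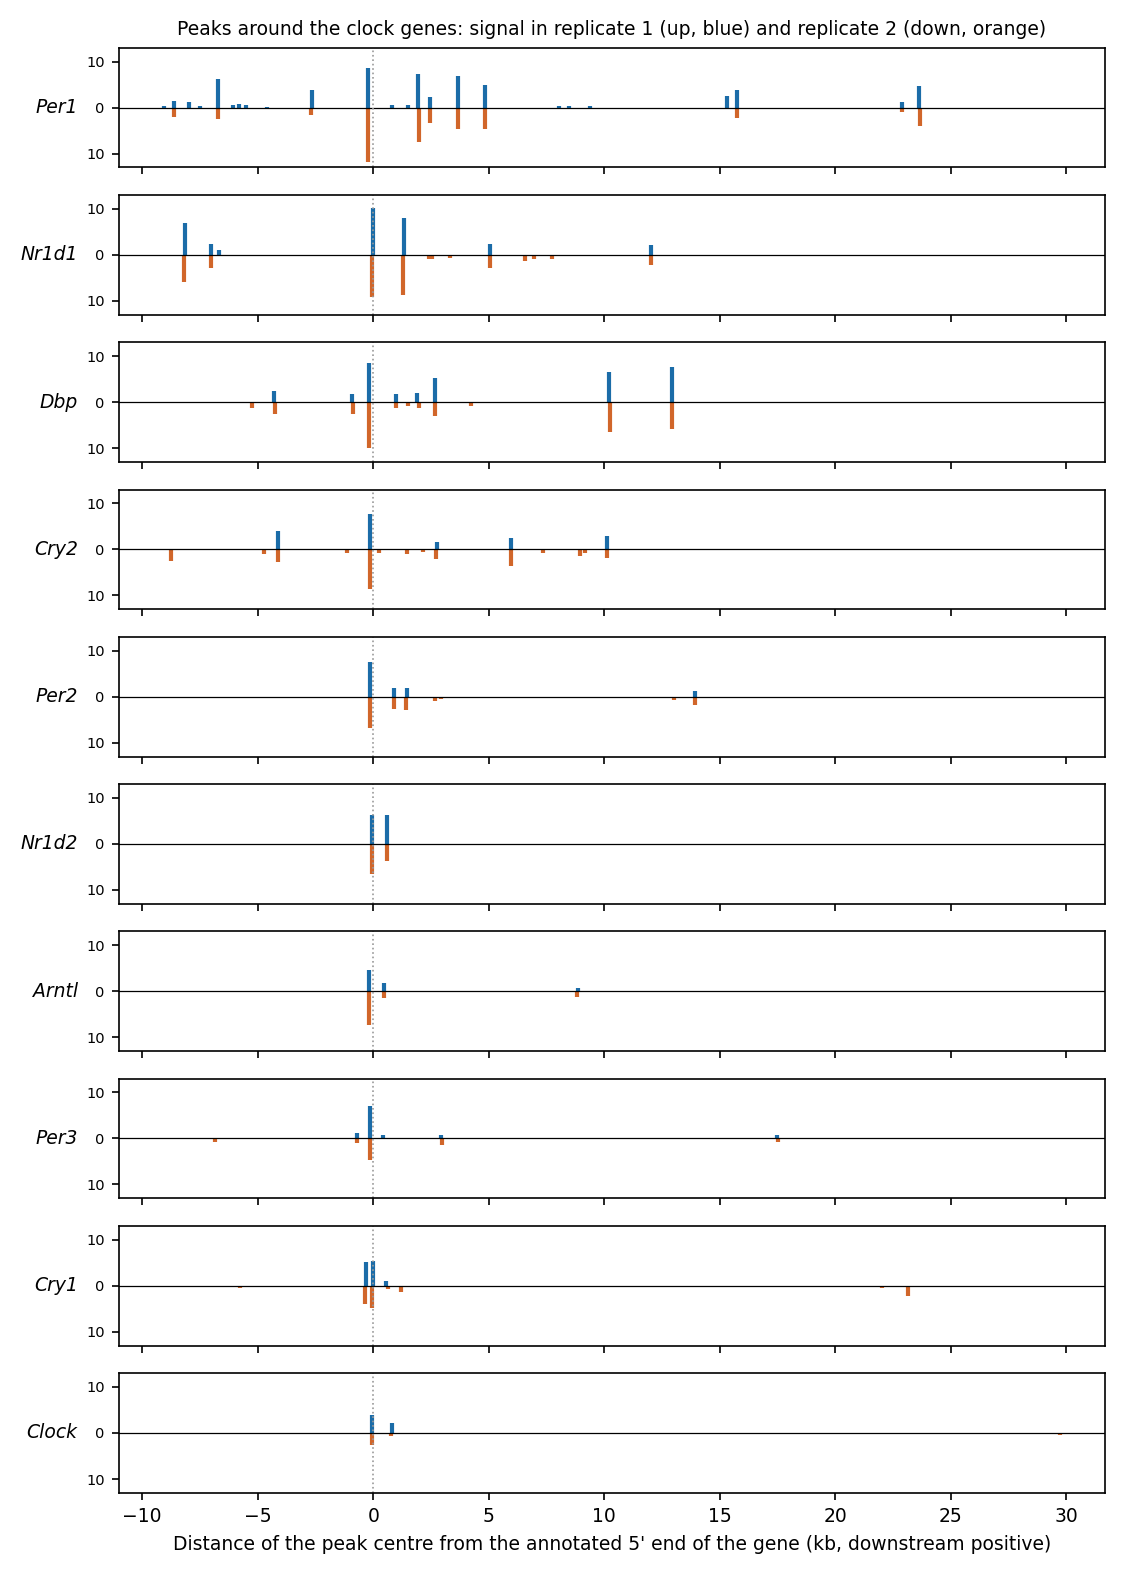
Main-list peaks around each clock gene, by the distance of the peak's centre from the annotated 5′ end of the gene in kb (horizontal axis). Bars up are the signal in replicate 1 and bars down the signal in replicate 2, in the authors' scale. Per1 and Nr1d1 are lined with peaks, and Nr1d2 shows its promoter-region pair alone.

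The median clock gene had more distal peaks for its length than the median of all genes. The median over the 10 was 7.10 distal peaks per 100 kb of window in replicate 1 and 9.62 in replicate 2, against 1.73 and 3.18 over all protein-coding genes. The medians and percentiles over all genes take in genes without a promoter peak, while all 10 clock genes had one. Per1 and Nr1d1 led, while Dbp, with the shortest window, had 7.96 and 15.9 per 100 kb. Per1 had 16 distal peaks in replicate 1 and 7 in replicate 2 in a window of 34.744 kb, or 46.1 and 20.1 per 100 kb (mean 33.1 ± 18.3, SD, n = 2). Nr1d1 had 6 and 11 in 27.402 kb, or 21.9 and 40.1 per 100 kb, and its placing was above percentile 99 of all genes in both libraries. These counts include weak peaks of 1 library, such as chr11:69090608-69090660 by Per1, with 0.238 in replicate 1. The Nr1d1 count of replicate 2 includes 2 peaks that overlap each other, chr11:98772664-98772920 and chr11:98772664-98773192. They had signals of 0.807 and 0.888 and no partner in replicate 1. Within the same 10% of genes by length, Nr1d1 stood at percentiles 99.3 in replicate 1 and 99.9 in replicate 2, and Per1 at 99.95 and 98.9. Cry2 stood at 92.1 and 99.5, Per2 at 88.0 and 95.2, Dbp at 84.3 and 95.9, and Arntl at 95.0 and 76.2. Only Nr1d1 and Per1 were above percentile 95 in both libraries.

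Among all genes, Per3 stood at percentiles 81.2 and 86.1 and Cry1 at 46.9 and 79.9. Clock had 2 and 3 distal peaks in 114.925 kb, at percentiles 50.1 and 44.1 of all genes. Nr1d2 had no distal peak in the main list of either library in 55.074 kb, and both of its peaks lay near its start. The wider list of replicate 2 had 3 weak distal peaks there, with signals of 0.454, 0.467 and 0.527. The windows of 9 of the 10 genes also hold other protein-coding genes (Vamp2 by Per1, Thra by Nr1d1, Mapk8ip1 by Cry2, and Car11, Sphk2 and Rpl18 by Dbp, for example), so a distal peak there need not belong to the clock gene.

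**Figure D4:**
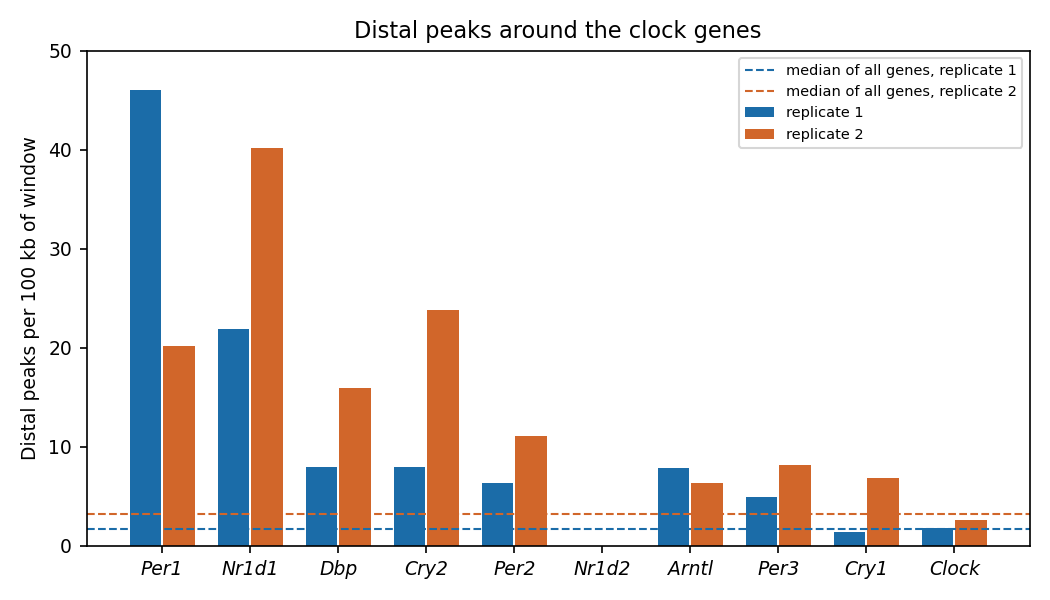
Number of distal peaks per 100 kb of each window (vertical axis; the gene and its flanks of 10 kb) for each clock gene and library, with the medians over all protein-coding genes, 1.73 and 3.18, as dashed lines. Per1 and Nr1d1 exceed 20 in both libraries, in opposite order, and Nr1d2 is at 0.

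The strongest distal peak was in an intron of Nr1d1, chr11:98773821-98774220, with a signal of 8.10 in replicate 1 and 8.81 in replicate 2 (mean 8.46 ± 0.499, SD, n = 2). That is close to the level of the gene's own promoter. It held the E-boxes at positions 1457 and 1177 and the D-box at position 1250 whose sequences are printed above, each covered in full by footprints of both libraries. A peak upstream of Nr1d1, chr11:98783381-98783620, had 6.84 and 5.97 and held 1 more footprinted E-box, at position -8211. In Per1 the intronic peak at chr11:69097041-69097260 had 7.29 and 7.49 (mean 7.39 ± 0.139, SD, n = 2), a small difference between the libraries. It held a CRE with 2 bases in a footprint in replicate 1 and all 8 in replicate 2. A nearby Per1 peak, chr11:69097616-69097762, had 2.30 and 3.28 and held a footprinted E-box at position -1272 from an internal start.

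In Dbp the intronic peak at chr7:45707661-45707860 had 5.25 and 3.10 and held E-boxes at positions 2430 and 2543, both footprinted in both libraries. Dbp thus had footprinted E-boxes inside the gene and none in its promoter peaks. In Cry2 an upstream peak starting at position 92438081 had 3.97 and 2.78, and an intronic peak starting at 92428001 had 2.56 and 3.68. A further Cry2 intronic peak, with 2.92 and 1.88, held a footprinted E-box at position 10167 and a core G at position 10097 in footprints of both libraries. Downstream of Per1, peaks starting at positions 69118761 and 69110861 had 4.79 and 3.90, and 3.73 and 2.15, and one upstream starting at 69092461 had 3.85 and 1.55.

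Counted over all peaks in the windows, 17 E-boxes were found, 15 of them in a peak of both libraries and 12 in a footprint of both. Over all E-boxes in a peak of either library, 18.8% were in a footprint of both. Those 12 were at 6 of the 10 genes, Per1, Cry1, Cry2, Nr1d1, Nr1d2 and Dbp, while 5.91% of all protein-coding genes had such an E-box in a peak of their window. Of the 8 D-boxes, 5 were footprinted in both libraries, against 12.2% of all D-boxes in peaks. They were at 4 of the 10 genes, Per2, Per3, Nr1d1 and Nr1d2, against 0.685% of all genes. Of the 34 distal peaks that paired one to one between the libraries, 5 held the same E-box in a footprint of both, which is 14.7% and falls on 4 genes. Over all distal peaks that paired in this way the share was 1.33%. Peaks of 1 gene share their locus, so these 5 are not independent cases. None of these background shares was matched for peak signal or for the number of peaks in a window. All 10 clock genes had a promoter peak in both libraries, against 58.7% of all genes. Their promoter peaks were also stronger than the median. The part of peak strength and number in these differences was not tested.

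The longer genes carried weaker intronic peaks. Arntl had 10 and 8 distal peaks, all in its introns, and the strongest in replicate 2, chr7:113247241-113247460, had 2.98, against 2.18 for its counterpart in replicate 1. Per2 had an intronic peak at chr1:91428741-91428920 with 3.49 in replicate 1 and 1.34 in replicate 2. In Cry1 the intronic peak at chr10:85154321-85154480 had 2.66 and 1.57. Another Cry1 intronic peak, chr10:85161821-85162020, was in the main list of replicate 2 alone, with 2.26, and overlapped a peak of 0.416 in the wider list of replicate 1. It held cores A at positions 23148 and 23097, with 7 and 3 bases in footprints there. In Clock the intronic peak at chr5:76216801-76216980 had 1.53 and 1.92.

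Of the 80 peaks in replicate 1 and the 92 in replicate 2, 61 in each overlapped a peak of the other library. This is 76.3% and 66.3% of the clock gene peaks, against 85.8% and 56.1% of all peaks, so the share was below that of all peaks in replicate 1 and above it in replicate 2. The lower share in replicate 1 rested on Per1: without it, 56 peaks were left in replicate 1, of which 89.3% were shared, and 81 in replicate 2, of which 61.7% were. The peaks of replicate 1 without a partner numbered 19 with Per1 and 6 without it. Shared peaks were stronger, with a median signal of 2.66 in both libraries, than the others, with 0.673 and 0.807.

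**Figure D5:**
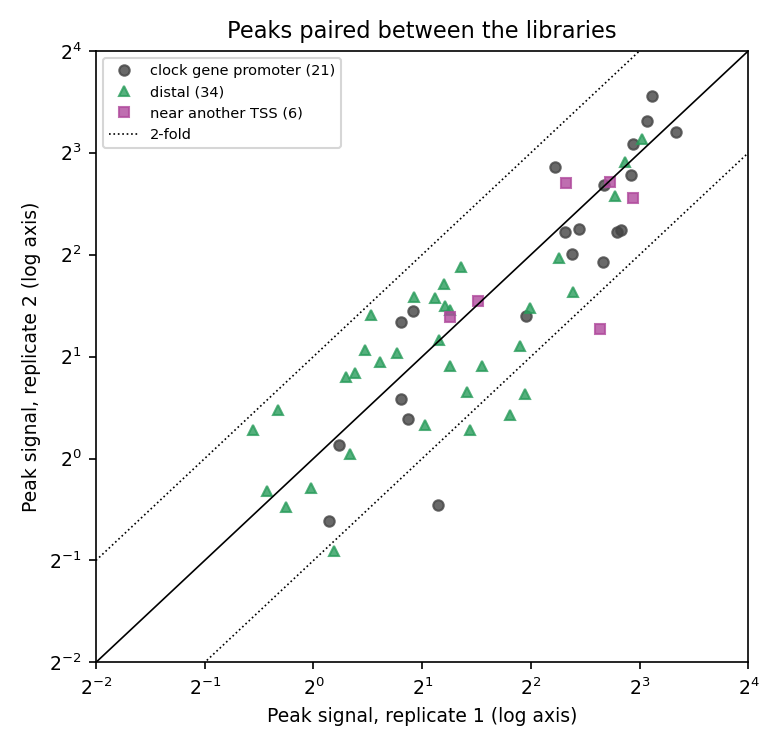
Signal of the 61 peaks around the clock genes that paired one to one, replicate 1 (horizontal) against replicate 2 (vertical), on log axes in the authors' scale. The solid line is equality and the dotted lines are 2-fold, and 55 of the 61 pairs lie between these. Promoter peaks take up most of the upper right.

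Over these 61 pairs the log2 signals had a Pearson correlation of 0.85 and a Spearman correlation of 0.85. The pairs are peaks of the same 2 libraries, and several belong to 1 gene, so this is a description. The median log2 ratio of replicate 1 to replicate 2 was 0.10, with an SD of 0.60 over pairs. Base composition moved with it: the 30 pairs with a GC content of at least 60% had a median of 0.24 and the 31 others had -0.26. The part of base composition in the difference between the libraries was not tested.

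Of 29 other clock pathway genes, listed by role, 25 had a promoter peak in each library, against 60.7% and 61.2% of all genes. The 25 included all 3 partners and paralogues (Npas2, Arntl2 and Ciart), all 3 bZIP factors (Tef, Hlf and Nfil3) and both DEC repressors. All 4 kinases, all 4 ubiquitin ligases and adaptors, all 3 other regulators and all 3 outputs were also among them. The 4 genes without one, Avp, Vip, Prok2 and Six6, are the neuropeptides and the factor listed for the suprachiasmatic nucleus. They need not be particular to it. In the wider list Prok2 had a weak peak in both libraries, 0.422 and 0.307, and Vip had one in replicate 1, 0.323. The median signal of the 25 genes was 4.31 and 2.92, lower than that of the 10 clock genes described above. Over all genes with a promoter peak the median was 3.82 and 2.88, so in replicate 2 the 25 were close to it.

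The strongest of them were Usp2, a deubiquitinase that is a clock output, with 12.1 and 10.0 (mean 11.1 ± 1.47, SD, n = 2), and Gsk3b, a kinase that phosphorylates clock proteins, with 9.36 and 12.7 (11.1 ± 2.39). Btrc, an adaptor of the ligase that marks PER proteins for decay, had 10.2 and 9.86 (10.0 ± 0.257). Tef, a relative of DBP, had 11.2 and 8.33 (9.75 ± 2.00). Csnk1d, a casein kinase that acts on PER proteins, had 9.41 and 5.67 (7.54 ± 2.65), and Bhlhe40, an E-box repressor, had 7.24 and 4.72 (5.98 ± 1.78). Npas2, which can stand in for CLOCK in the forebrain, had 1.74 and 0.968, below Clock itself in both libraries, and Arntl2, the paralogue of Arntl, had 1.41 and 1.31, below Arntl.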

How the data were processed

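DNase-seq libraries were analysed from the files that the authors deposited, in mm10 coordinates, and the notes deposited with them say that each file rests on 1 library's filtered alignments. Aligner, peak caller and footprint tool were not given in the sources used here. No read totals were used, and depth shows only in how many calls were made. The peak signal is the value deposited by the authors, whose scaling is not stated, and it ranks peaks within a library. The per-base values deposited by the authors are q-values, listed up to 0.05. Footprints were used by position only. Reads of both parental genomes meet a C57BL/6J reference, which can hide a CAST-only peak; the alleles were not separated.

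The shorter peak list was the main one, and the wider list had 120015 and 178564 peaks. Genes and TSSs came from the GENCODE M21 basic annotation. Peaks were shared at 1 bp of overlap. A footprint was counted in the peak that held its centre. CpG ratios were taken around the TSS. The code used pysam 0.24.0, pandas 2.3.3, numpy 2.4.6, scipy 1.17.1, matplotlib 3.10.9 and python 3.11.15, and overlaps and motif searches were tested on simulated data. No test was possible with 1 group, so counts stand beside those of all genes.

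All 10 members are named, as are the other clock genes with no promoter peak, the 6 strongest, the 10 strongest paired distal peaks, and the 3 genes nearest to the strongest member, except for items that are not reported here. Other peaks and genes given with values were chosen after their values were seen. The members, gene lists and motifs were chosen with earlier results of these data known. Alternatives covered the peak list, promoter and gene windows, annotation, list length, overlap rule, footprint rule and leaving out each library.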

Additional observations from a re-analysis of the deposited data

How the results depend on the processing

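Of 43 values under alternative settings, 39 stayed within the replicate spread or within 1.5 times a count, and 4 moved. The peaks in the windows, on average 86.0 over the libraries, came to 178 with 50 kb on each side and to 56.0 in the gene bodies alone. The median number of distal peaks per 100 kb, 8.36, came to 10.8 in the wider list and to 5.44 with 50 kb on each side. Longer and shorter windows take in more and less sequence by construction, and the cause of the other changes was not tested. Leaving out either library gave 80 to 92 peaks, 7.10 to 9.62 distal peaks per 100 kb and a median promoter signal of 7.05 to 7.35. These values are among the 39, but they are those of the single libraries and lie within the replicate spread by construction. All 10 genes kept a promoter peak in every setting tried. The comprehensive annotation, which adds starts, and leaving out a library could not have lost one. In the wider list the strongest promoter peak of each gene had the same signal as in the main list. Genes with a promoter E-box in a footprint numbered 2 where the motif had to lie wholly inside it and 3 in the other settings that asked for a footprint. With the motif anywhere in a promoter peak, footprint or not, the number was also 3. No paired analysis was possible because the libraries form 1 group. Weak peaks depend on depth, which is known here only through the length of the lists.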
